A study of Rattus norvegicus with 8 samples.

Results

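The RING finger ubiquitin ligases were examined in 3′ end libraries of the rat hypothalamus. They were taken as all protein-coding genes whose symbol starts with Rnf or Trim and a digit, which gave 85 genes (60 Rnf and 25 Trim) of 12255 genes in the table. These genes held 381 polyadenylation sites (262 Rnf and 119 Trim) of 73922 sites, and 57344 reads (0.43%) of 13341135. The rule reads symbols only, although the group itself was chosen with earlier results of these data known.

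Each library came from 1 adult male Long-Evans rat and was made by WTTS-seq, which counts the 3′ ends of polyadenylated RNA. The control group was 4 rats on standard rodent chow with 0.51 kcal/g from fat. The obesity group was 4 rats with free access to a high fat diet with 1.71 kcal/g from fat, labelled as diet-induced obesity. Tissue was taken after 36 days in both groups, and the whole hypothalamus was sampled, so fewer cells of a type and less RNA per cell cannot be told apart.

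Ubiquitin is attached to proteins by an activating enzyme, a conjugating enzyme and a ligase, and the ligase chooses the protein. A RING finger is a zinc-binding fold that holds the loaded conjugating enzyme next to the substrate. TRIM proteins carry a RING, B-boxes and a coiled coil, and many act in innate immunity or on chromatin, while RING-between-RING ligases first take the ubiquitin onto a cysteine of their own. Rnf123 is the catalytic subunit of the KPC complex. With its partner Ubac1 it ubiquitinates the cell cycle inhibitor encoded by Cdkn1b, and it also acts in the processing of the NF-kappaB precursor encoded by Nfkb1.

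The libraries held 1417531 to 1957726 reads. Values per library are given in the order of the library numbers, 1 to 4 in each group. Control library 1 and obesity library 1 had the most sites at 0 reads, 14788 and 10659, against 4062 to 6622 in the other libraries. Several markers of the hypothalamus were detected, Avp at a mean of 976 CPM in control and 720 CPM in obesity (CPM, reads scaled to the TMM-adjusted size of the library). Of 16 hypothalamus markers, 13 were in the table, with a summed level of 1235 to 1671 CPM in control and 1033 to 1310 CPM in obesity. At an unadjusted p under 0.05 in edgeR, 2 of these 13 were higher in obesity (Crh and Sim1) and 3 were lower (Avp, Oxt and Sst), and with the block 2 and 4, with log2 fold changes from -1.36 to 2.03. Markers of other cells also differed between libraries. The summed level of 4 of 7 anterior pituitary markers was 40.6 to 89.96 CPM in control and 8.85 to 188 CPM in obesity. Their log2 fold changes ran from -0.59 to 5.99, and 1 was higher at an unadjusted p under 0.05 in edgeR. With the block 1 was higher and 1 lower. Ttr, the 1 choroid plexus marker of 5 that was measured, ranged from 0 to 1.52 CPM in control and from 0 to 98.0 CPM in obesity. Its log2 fold change was 5.26, and it passed an unadjusted p of 0.05 in edgeR with the block only. All 10 oligodendrocyte markers had a mean below control (17589 to 23092 CPM summed in control, 13560 to 21309 CPM in obesity). In edgeR 2 of them passed an unadjusted p of 0.05, as 5.12% of all genes did. Of 8 astrocyte markers, 2 had a log2 fold change above 0 and 6 below, and 1 was lower at that threshold. Of 7 thalamus markers, 1 was above 0 and 6 below, and 0 passed. Of 8 markers of midbrain dopamine neurons, 4 were measured, at 47.5 to 77.9 CPM summed in control and 17.7 to 58.0 CPM in obesity. Slc6a3, En1, Pitx3 and Aldh1a1 were not in the table. Th, among the measured genes, was lower in obesity and passed in edgeR with the block at an adjusted p of 0.088. The part of these differences in the results below was not tested.

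Promoters are shown for Rnf123 and Rnf5, since they were the 2 members higher in obesity at an unadjusted p under 0.05. The reads behind these 2 differences lay on the strand opposite to the gene. Whether the promoters shown drive that RNA was not tested. Both are RefSeq promoters on GRCr8, 250 bases before to 50 bases after the annotated start, written 5′ to 3′ in the direction of the gene with each CG in capitals. The Rnf123 promoter is chr8:117646225-117646524 (minus strand) and the Rnf5 promoter is chr20:4149897-4150196 (plus strand).
Rnf123: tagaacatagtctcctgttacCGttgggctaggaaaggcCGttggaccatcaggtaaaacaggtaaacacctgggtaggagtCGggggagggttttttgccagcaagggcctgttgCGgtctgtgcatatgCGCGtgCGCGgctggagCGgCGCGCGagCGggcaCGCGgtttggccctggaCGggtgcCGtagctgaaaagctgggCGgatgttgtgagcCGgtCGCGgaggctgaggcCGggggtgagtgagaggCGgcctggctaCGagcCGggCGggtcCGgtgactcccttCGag
Rnf5: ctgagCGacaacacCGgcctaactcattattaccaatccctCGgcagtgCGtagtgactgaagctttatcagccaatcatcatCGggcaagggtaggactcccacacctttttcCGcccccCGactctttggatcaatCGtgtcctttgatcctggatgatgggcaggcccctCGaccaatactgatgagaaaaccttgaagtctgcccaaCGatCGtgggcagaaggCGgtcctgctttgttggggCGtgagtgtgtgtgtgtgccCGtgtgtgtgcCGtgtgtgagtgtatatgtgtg

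The Rnf123 promoter was 64.3% G or C and held 28 CG pairs. The Rnf5 promoter was 54.0% G or C with 15 CG pairs. RefSeq promoters were found for 69 of the 85 genes, and their median G or C content was 60.7%, against 52.3% over 27457 promoters of the same length. The 27457 were not filtered by gene type or by expression in this tissue. The ratio of observed to expected CG pairs had a median of 0.767 in the members and 0.417 in all promoters. The letters TATAAA, searched on both strands, were in 11.6% of member promoters and 14.3% of all promoters, and CCAAT was in 40.6% and 37.7%. Neither of these motifs was in the Rnf123 window, while the Rnf5 window held CCAAT. These letters are a description of the windows, not evidence of binding.

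Member genes were not scarce in this tissue. The median member had a mean of 22.9 CPM over the 8 libraries, against 20.05 CPM over all genes. Of the 85 genes, 12 were above 100 CPM and 23 were below 10 CPM. Because each read marks 1 RNA end, the levels were not divided by transcript length. The 10 most abundant members held 54.9% of the member reads on the strand used for each gene. Rnf genes had a median of 26.0 CPM and Trim genes 15.7 CPM.

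Trim44 was the most abundant member. It carries a zinc finger of the ubiquitin protease type in place of a RING, and holds back the degradation of some substrates. Its levels were 1096, 947, 810 and 1031 CPM in the control rats and 879, 811, 1060 and 1054 CPM in the obesity rats. It was above Rnf220, the next gene, in every library, and its groups overlapped (971 ± 123 CPM in control, 951 ± 126 CPM in obesity, SD, n = 4 each). Obesity over control gave a log2 fold change of -0.03 (SE 0.18).

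After Trim44 came Rnf220, a nuclear ligase with a role in the patterning of the neural tube, at 277 ± 38.6 CPM in control and 275 ± 47.8 CPM in obesity. Rnf112, a brain-enriched GTPase with a RING, was at 293 ± 29.997 CPM and 230 ± 49.7 CPM. Rnf20, which ubiquitinates histone H2B together with Rnf40, was at 241 ± 61.6 CPM and 199 ± 46.0 CPM. The next genes were Trim37, Trim2, Rnf157, Rnf14, Rnf187 and Rnf216, with means over all libraries from 199 down to 117 CPM. The Trim37 level was counted on the strand opposite to the gene, as described below. The ranges of neighbouring genes in this order overlapped from Rnf220 downwards, so the order below Trim44 is not settled by these libraries.

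**Figure D1:**
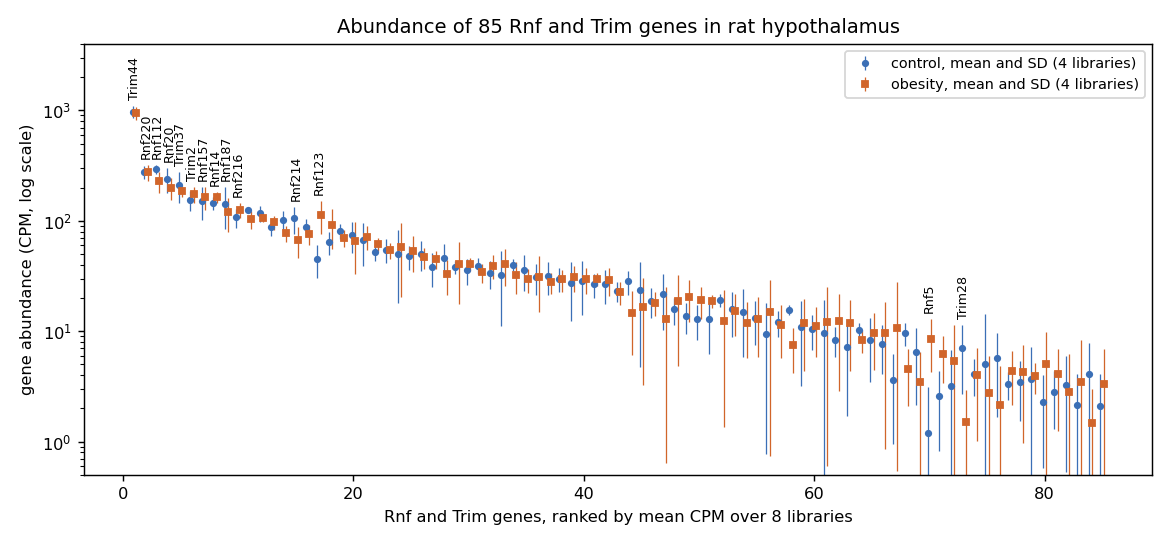
Abundance of the 85 Rnf and Trim genes, ranked by mean CPM over 8 libraries (x axis), in CPM on a log scale (y axis). Points are means of 4 libraries per group and lines are the SD, which is drawn shortened where it would reach 0. Trim44 stands alone at the top, while Rnf123, at 45.3 CPM in control and 113 CPM in obesity, lies in the upper part of the range. All Rnf123 reads counted here lay on the strand opposite to the gene, as described below.

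Member sites took 0.438% ± 0.0168 of all reads in control rats and 0.420% ± 0.0297 in obesity (SD, n = 4 each). Per library it was 0.452%, 0.452%, 0.419% and 0.428% in control and 0.386%, 0.416%, 0.459% and 0.419% in obesity. The difference of -0.018 percentage points was within the spread of the obesity libraries. No test was run on this share.

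The comparison of obesity with control asked which members differed in abundance. With edgeR's quasi-likelihood test, 0 of the 85 members passed an adjusted p of 0.1, as did 0 (0.0%) of all 12255 genes. At an unadjusted p under 0.05, 2 members were higher in obesity and 3 were lower (Rnf123 and Rnf5 higher, Rnf214, Trim28 and Rnf115 lower). The Rnf123 and Rnf5 reads counted lay on the strand opposite to the gene, as described below. Over all genes the same threshold took 2.54% higher and 2.58% lower, so the 5.88% of members stood near the 5.12% of all genes. The median log2 fold change was 0.04 over the members and 0.00 over all genes, and 58 of the 85 members had a value between -0.5 and 0.5. DESeq2 gave 0 members at an adjusted p under 0.1 (4 genes of all, 0.0326%), and 5 members at an unadjusted p under 0.05, where 5.88% of all genes also lay.

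The labels number the libraries 1 to 4 in both groups, and libraries with the same number deviated together. With the number as a block in the edgeR fit, 1 member passed an adjusted p of 0.1, Rnf123, among 34 (0.277%) of all genes. At an unadjusted p under 0.05, 2 members were then higher and 6 lower, against 4.76% higher and 6.16% lower over all genes. The 9.41% of members was below the 10.9% of all genes. The members added under the block were Rnf112, Rnf113a2 and Rnf126, each lower. The levels of 4 members did not overlap between the groups (4.71%, against 3.45% of all genes), with Rnf123 and Rnf5 higher in obesity and Rnf126 and Trim28 lower.

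**Figure D2:**
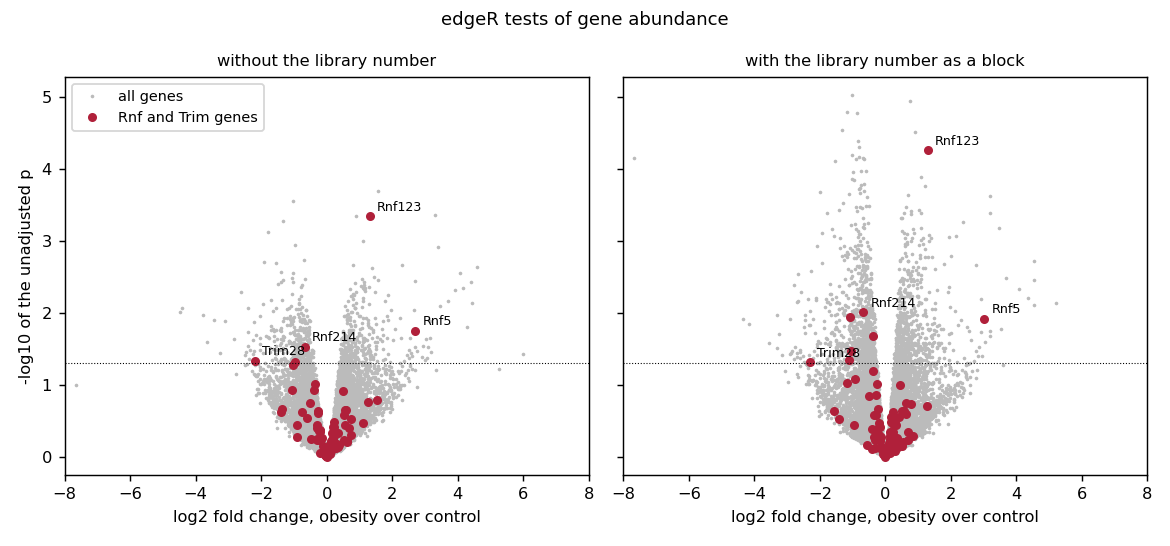
The log2 fold change of obesity over control (x axis) and -log10 of the unadjusted p (y axis) of each gene in edgeR, without the library number (left) and with it as a block (right). Grey dots are all 12255 genes, red dots the 85 members, and the dotted line is an unadjusted p of 0.05. Rnf123 stands above the other members in both panels, with an adjusted p of 0.921 on the left and 0.0606 on the right. Its reads counted here lay on the strand opposite to the gene.

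Rnf123 had 34.0, 50.8, 32.5 and 63.8 CPM in the control rats and 138, 64.9, 146 and 105 CPM in the obesity rats. All 4 obesity libraries were above all control libraries, but obesity library 2 exceeded control library 4 by little. The means were 45.3 ± 14.9 CPM and 113 ± 36.9 CPM (SD, n = 4 each). On the log2 scale it differed by 1.32 (SE 0.31), with an unadjusted p of 0.000456 and an adjusted p of 0.921 in edgeR. With the block it was 1.30 (SE 0.27), with an unadjusted p of 5.55e-05 and an adjusted p of 0.0606. The blocked call was lost without both libraries numbered 3 (log2 fold change 1.02, adjusted p 0.416) and without those numbered 4 (1.53, adjusted p 0.415). It held without those numbered 1 (1.06, adjusted p 0.073) and those numbered 2 (1.61, adjusted p 0.000949). All 4 of these fits gave a higher level in obesity, by 1.02 to 1.61 on the log2 scale.

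All reads behind this value came from 1 site, and its strand was not that of the gene. The site lies on chromosome 8, plus strand, 116852046 to 116852059 (Rnor_6.0), and held 915 reads. RefSeq places Rnf123 on the minus strand, and all 10 neighbouring genes used to align the maps had the same order and strand in the table. The other Rnf123 site lies on the minus strand at 116829050 to 116829054 and held 98 reads. It gave 15, 8, 18 and 6 reads in the control rats and 16, 16, 13 and 6 in the obesity rats. The antisense site gave 48, 76, 40 and 84 reads, and 184, 80, 249 and 154 reads.

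The sense site therefore showed no difference that these counts could detect. It had 7.55 ± 4.26 CPM in control and 7.52 ± 3.33 CPM in obesity, with a log2 fold change of -0.01 (SE 0.62). The antisense site had 38.9 ± 13.2 CPM and 93.0 ± 29.8 CPM, with a log2 fold change of 1.26 (SE 0.37). In the fit over all sites the antisense site had an unadjusted p of 0.00431, and its adjusted p was 1.00 without the block and 0.26 with it. When genes were summed over the RefSeq sense strand where it could be set, Rnf123 had a log2 fold change of 0.06 (SE 0.61) and an adjusted p of 0.996. A sense strand was set for 59 of the 85 members, and the other genes kept the strand with most reads. In that setting 0 of 82 measured members passed an adjusted p of 0.1 with or without the block. At an unadjusted p of 0.05 in edgeR, 3 members passed (3.66%, against 5.11% of all genes). With the block 6 passed, all lower (11.1% of all genes). Among them Rnf115, without and with the block, and Rnf112, with the block, had no sense strand set.

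The nearest plus-strand sites of other genes were 21.2 kb before it (Amigo3) and 215 kb after it (Nicn1). No genome of the build was used here, so whether the site lies in an exon or intron of Rnf123 was not determined.

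**Figure D3:**
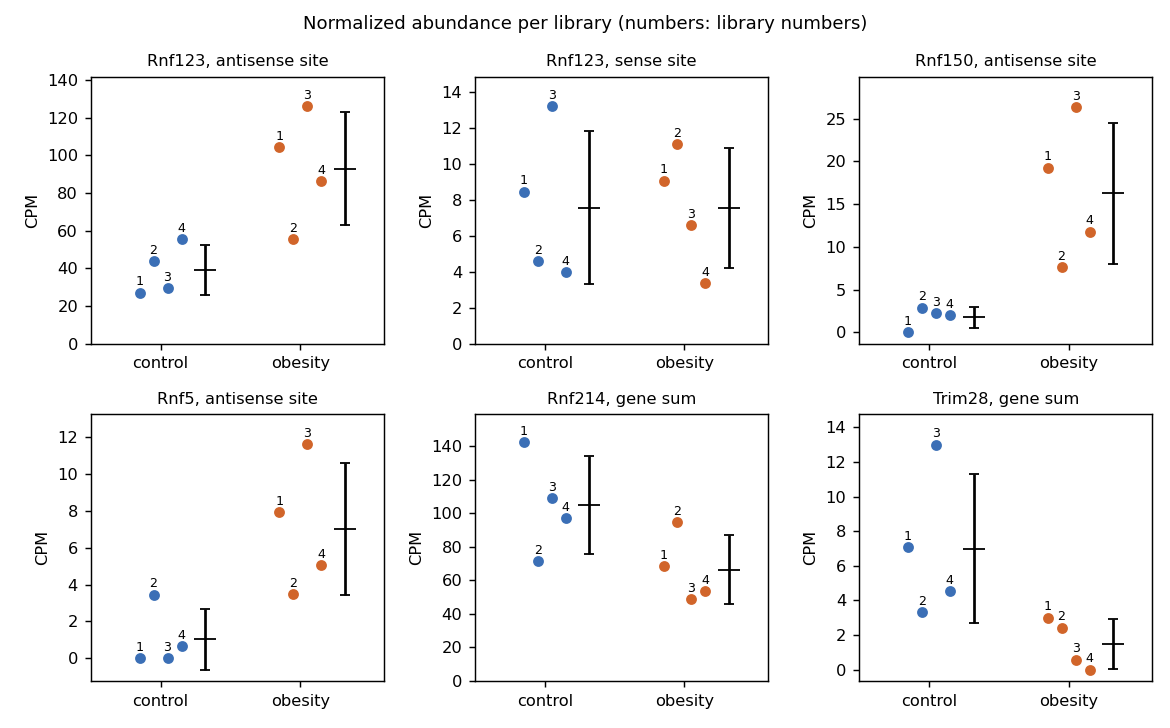
CPM per library (y axis) in control and obesity for 4 sites and 2 gene sums, with library numbers beside the points and the mean and SD of 4 libraries in black. The antisense sites of Rnf123, Rnf150 and Rnf5 are highest in obesity library 3 and lowest among the obesity libraries in library 2, while the sense site of Rnf123 overlaps between groups (7.55 and 7.52 CPM on average).

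The other measured genes of the KPC list did not pass an unadjusted p of 0.05 in edgeR with or without the block. Ubac1 was at 28.5 ± 8.77 CPM in control and 19.1 ± 4.4 CPM in obesity (log2 fold change -0.57, SE 0.37), and was lower in obesity in all 4 same-numbered pairs. Nfkb1 was at 44.2 ± 11.2 CPM and 56.0 ± 34.2 CPM (log2 fold change 0.35, SE 0.43). Cdkn1b was not analysed here.

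The strand was then read for all members. An orientation could be set for 59 of the 85 genes, from the RefSeq strand and the order of neighbouring genes. Of the remaining genes, 16 had no RefSeq promoter entry and 10 had an unclear order. At 7 of the 59 genes (11.9%, against 8.12% of all oriented genes) most reads lay on the antisense strand. These were Rnf11l1, Rnf123, Rnf13, Rnf144b, Rnf166, Rnf5 and Trim37. For Rnf13, 4 of the 7 neighbouring genes used had the same strand in both maps, so its orientation is less certain. Rnf5 and Rnf150 lie where the gene order is reversed between the builds, so their RefSeq strand was reversed. The plus-strand site of Rnf5 was thus read as antisense. At each of these 2 genes, 2 of the 10 neighbouring genes had the same strand in both maps, against the reversal. By site, 220 of the 381 were sense, 31 were antisense and 130 were undetermined. The antisense sites came from 16 genes and held 13.6% of the oriented member reads, against 7.27% over all oriented reads.

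Of the 31 antisense sites, 3 were higher in obesity at an unadjusted p under 0.05 and 0 were lower. Over all 2441 antisense sites the same threshold took 3.61% higher and 0.778% lower, so the tilt was not particular to the members. With the block 4 were higher and 1 lower, against 5.0% and 1.97% of all antisense sites. Antisense reads were 5.61% to 7.09% of oriented reads in the control libraries and 6.71% to 9.51% in the obesity libraries. Their share was highest in obesity library 1. The part of this share in the member values was not tested.

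The 3 antisense sites that were higher belonged to Rnf123, Rnf150 and Rnf5. Rnf150 is a membrane-anchored RING ligase. Its antisense site (chromosome 19, minus strand, 24207776 to 24207777) had 0, 5, 3 and 3 reads in the control rats and 34, 11, 52 and 21 in the obesity rats, without overlap. Obesity over control gave a log2 fold change of 3.17 (SE 0.76). Its adjusted p was 1.00 in edgeR, 0.197 with the block and 0.096 in DESeq2, where it was the 1 member site past 0.1 (10 of all sites, 0.0135%). The sense sites of Rnf150 together had 33.7 ± 9.42 CPM in control and 39.2 ± 9.4 CPM in obesity, with a log2 fold change of 0.22 (SE 0.32). The nearest minus-strand site of another gene after it was that of Elmod2, 268 kb away.

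Rnf5 is a ligase anchored in the endoplasmic reticulum membrane that takes part in the removal of misfolded proteins. Its 1 site (chromosome 20, plus strand, 4366738 to 4366761) had 0, 6, 0 and 1 reads in the control rats and 14, 5, 23 and 9 in the obesity rats. Here control library 2 had 4.01 CPM and obesity library 2 had 4.06 CPM, so the groups nearly met. The log2 fold change was 2.71 (SE 1.03), with an unadjusted p of 0.0177 and an adjusted p of 0.921 in edgeR. The site lay 4.06 kb after a plus-strand site of Pbx2 and 11.5 kb before one of Agpat1. No sense site of Rnf5 was in the table.

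In all of these antisense sites obesity library 3 was highest, followed by libraries 1, 4 and 2. The order was shared by the 3 sites and not by the sense site of Rnf123, whose highest obesity level was in library 2. With 4 libraries per group this is a description only.

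**Figure D4:**
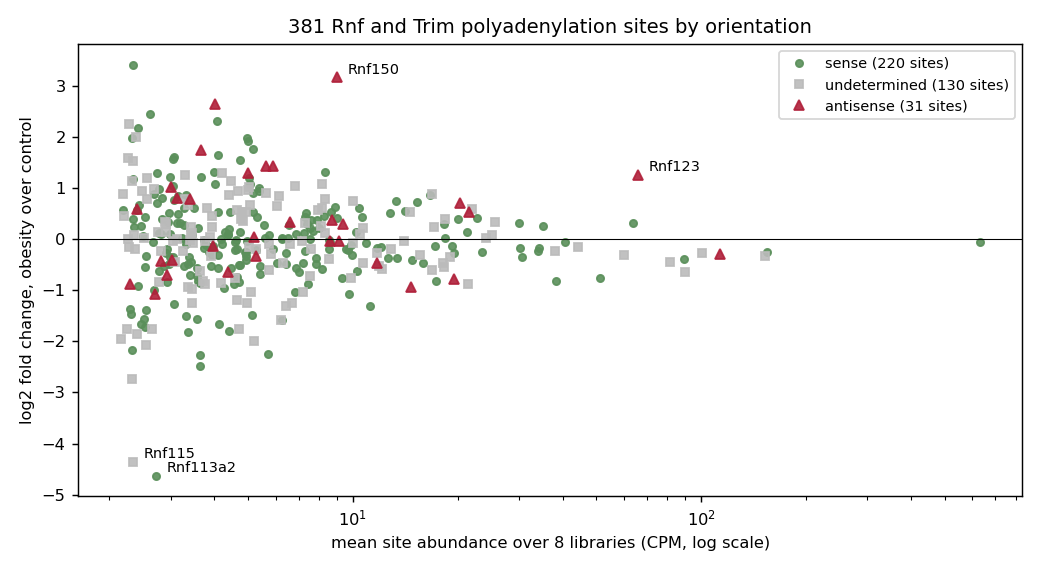
Mean abundance in CPM on a log scale (x axis) and log2 fold change of obesity over control (y axis) of the 381 member sites, by orientation (220 sense, 31 antisense, 130 undetermined). The named sites passed an unadjusted p of 0.01 in edgeR, as did 371 of all 73922 sites. Of these 4 member sites, 2 were antisense (Rnf123 at 1.26 and Rnf150 at 3.17). Over all 2441 antisense sites, 3.61% were higher and 0.778% lower in obesity at an unadjusted p under 0.05.

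Across all member sites, edgeR gave 0 at an adjusted p under 0.1, against 1 (0.00135%) of all 73922 sites. At an unadjusted p under 0.05, 6 were higher and 8 lower in obesity, and over all sites 1.72% were higher and 1.41% lower. The 3.67% of member sites was near the 3.14% of all sites. With the block, 8 were higher and 18 lower, 26 in all (2.79% and 3.31% over all sites, 6.09% in all), and 0 passed an adjusted p of 0.1, against 4 (0.00541%) of all sites. The groups did not overlap at 21 sites, 9 higher and 12 lower (5.51%, against 3.11% of all sites).

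Of the 3 members lower without the block, Rnf214 had the most reads. It had 142, 71.6, 109 and 97.3 CPM in the control rats and 68.4, 94.97, 48.6 and 53.8 CPM in the obesity rats. Control library 2 lay among the obesity values and obesity library 2 among the control values. On the log2 scale it differed by -0.66 (SE 0.28), with an unadjusted p of 0.0299 and an adjusted p of 0.921 in edgeR. Of its 940 sense reads, 494 came from a site at 50164571 to 50164656 on the minus strand of chromosome 8. Another 5 sites assigned to Rnf214 lay on the plus strand, the first of them 0.377 kb after a site of Bace1, and were not counted in this sum.

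Trim28, a co-repressor recruited by zinc finger proteins that silences transposable elements, rested on 1 site with 45 reads. It had 10, 5, 16 and 6 reads in the control rats and 4, 3, 1 and 0 in the obesity rats. Its CPM did not overlap, at 7.0 ± 4.3 and 1.51 ± 1.44 (SD, n = 4 each). Obesity over control gave a log2 fold change of -2.19 (SE 1.02). The edgeR fit put its adjusted p at 0.921.

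Rnf115, a ligase that acts in endosomal trafficking, had 34.0, 30.8, 17.9 and 30.4 CPM in the control rats and 24.8, 9.74, 5.86 and 17.7 CPM in the obesity rats. Control library 3 lay within the obesity range. The log2 fold change was -0.97 (SE 0.45), and the adjusted p was 0.921 in edgeR and 0.287 with the block. One of its sites (chromosome 2, plus strand, 198915820 to 198915836), which passed an unadjusted p of 0.01 in edgeR, had 16, 12, 2 and 1 reads in control and 0, 1, 0 and 0 in obesity.

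Rnf126, which ubiquitinates mislocalized membrane proteins in the cytosol, had 17.0, 16.7, 14.6 and 13.7 CPM in the control rats. In the obesity rats it had 4.51, 8.12, 11.7 and 5.44 CPM, all below control. On the log2 scale it differed by -1.04 (SE 0.50), with an unadjusted p of 0.0534 in edgeR and 0.0451 with the block. Rnf112 had a log2 fold change of -0.35 (SE 0.20) and was lower in obesity in all 4 same-numbered pairs, with an unadjusted p of 0.0988 in edgeR and 0.0213 with the block.

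Rnf113a2 belongs to a family of spliceosome genes that includes near-identical copies, so its reads could also come from another copy. It had 53, 21, 16 and 29 reads in the control rats and 39, 3, 8 and 22 in the obesity rats. Its unadjusted p was 0.238 in edgeR and 0.0337 with the block. One of its 3 sites (chromosome 6, plus strand, 108132682 to 108132696) had 0, 19, 5 and 10 reads in control and 0, 0, 0 and 1 in obesity. All reads of library 1 in both groups, 53 and 39, lay at the site at 108132530 to 108132546, which had at most 3 reads in any other library.

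The members were grouped by role, with lists read against all genes, of which 6134 had a log2 fold change above 0 and 6121 below. Of the ligases of the endoplasmic reticulum, Golgi and endolysosomal membranes, 15 of 21 were measured. Their log2 fold change was above 0 in 13 and below 0 in 2, with a median of 0.23, and 1 of them passed an unadjusted p of 0.05 (5.12% of all genes did). This was Rnf5, whose reads came from its antisense site. Rnf13, also among the 13, was summed on its antisense strand too, with 42 reads. Its log2 fold change was 1.10 (SE 1.13), and 2.04 (SE 1.29) on the RefSeq sense strand. The summed level of the 15 genes was 191 to 283 CPM in control and 276 to 307 CPM in obesity, which overlap. The most abundant were Rnf130, a ligase of the goliath family, at 52.5 ± 9.59 CPM in control and 61.6 ± 8.17 CPM in obesity, and Rnf150.

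Of the ligases of chromatin and the DNA damage response, 10 of 12 were measured, 3 with a value above 0 and 7 below, and a median of -0.20. Trim28 was the 1 gene of this list that passed an unadjusted p of 0.05 in edgeR, which 5.12% of all genes did. Rnf20 had a log2 fold change of -0.28 (SE 0.23), and Trim33, which ubiquitinates a Smad protein, had -0.02 (SE 0.28). The summed level was 446 to 545 CPM in control and 415 to 489 CPM in obesity.

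The ligases of neurons were the role list with the most reads, at 828 to 1032 CPM summed in control and 828 to 966 CPM in obesity. Of 12 genes, 10 were measured, 4 with a value above 0 and 6 below, with a median of -0.03. In edgeR 0 passed an unadjusted p of 0.05. With the block 1 passed (Rnf112), as 10.9% of all genes did. Trim2, which ubiquitinates neurofilament light chain, was at 155 ± 31.7 CPM in control and 173 ± 27.9 CPM in obesity.

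Of the RING-between-RING ligases, 7 of 8 were measured, with a median log2 fold change of 0.12 and 0 past an unadjusted p of 0.05 in edgeR with or without the block. Rnf14, a co-activator of the androgen receptor, was at 145 ± 18.5 CPM in control and 164 ± 17.8 CPM in obesity, and was higher in obesity in all 4 same-numbered pairs (log2 fold change 0.18, SE 0.20). Rnf216, whose targets include the synaptic protein Arc, was at 108 ± 21.2 CPM and 126 ± 20.3 CPM.

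Of the ligases of innate immunity, 7 of 15 were measured, at low levels (82.1 to 169 CPM summed in control, 99.6 to 173 CPM in obesity), with a median of 0.16 and 0 past an unadjusted p of 0.05 in edgeR with or without the block. The most abundant were Trim8 and Trim26. Trim8 varied between the libraries of a group, from 19.8 to 90.4 CPM in control and from 27.0 to 112 CPM in obesity, and in both groups libraries 2 and 4 were above libraries 1 and 3. Trim26 had a log2 fold change of 0.16 (SE 0.34). Of the ligases of striated muscle, 1 of 5 was measured, Rnf207, at 31.97 ± 20.9 CPM in control and 40.4 ± 15.004 CPM in obesity.

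**Figure D5:**
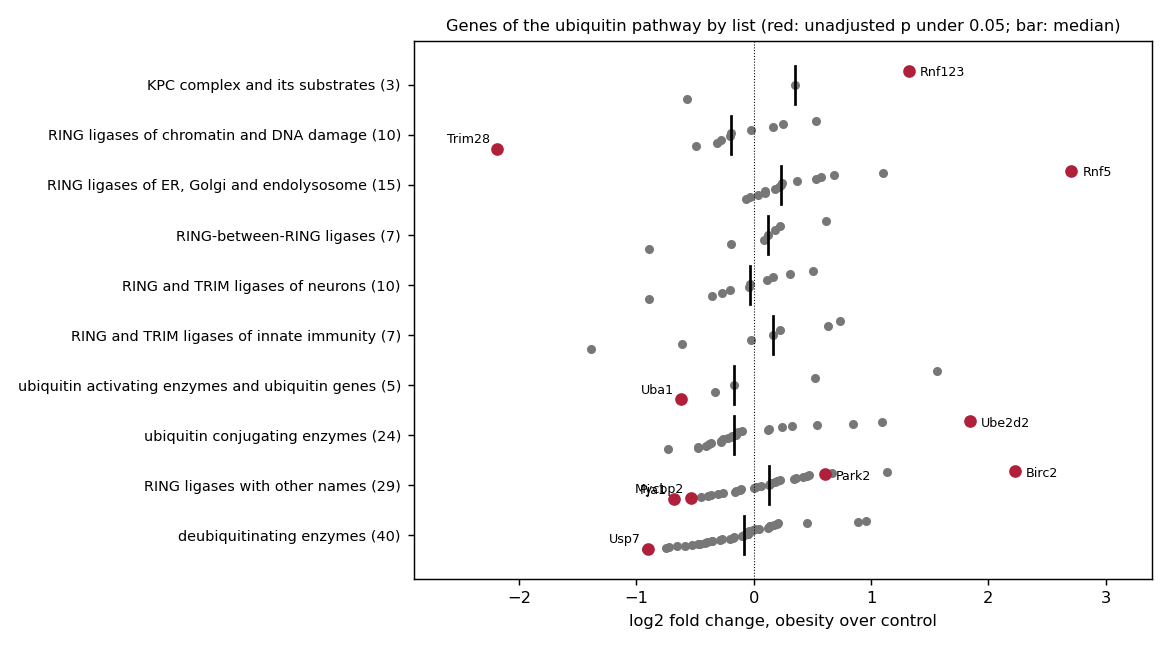
The log2 fold change of obesity over control (x axis) of each measured gene in 10 lists of the ubiquitin pathway (rows, number of genes in brackets). Red dots passed an unadjusted p of 0.05 in edgeR without the block and the bars are medians, which lie between -0.20 and 0.35. The values of Rnf123, Rnf5, Rnf13 and Rnf144b were summed on the strand opposite to the gene.

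The genes that work before and after the ligases were read from the same fit. Whether their reads lay on the sense strand is not given here. Of the activating enzymes and ubiquitin genes, 5 of 6 were measured, with 1 lower at an unadjusted p under 0.05 in edgeR (2.58% of all genes). This was Uba1, the main activating enzyme, at 188 ± 49.5 CPM in control and 122 ± 16.9 CPM in obesity (log2 fold change -0.62, SE 0.23), with an adjusted p of 0.921 without and 0.176 with the block. Ubb, which encodes ubiquitin, had 5.09 ± 6.51 CPM and 14.9 ± 5.27 CPM, with a log2 fold change of 1.56 (SE 0.78).

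Of the conjugating enzymes, 24 of 30 were measured, 8 with a value above 0 and 16 below, with a median of -0.17. Ube2d2, a general partner of RING ligases, was the 1 that passed an unadjusted p of 0.05 in edgeR, as 5.12% of all genes did. It was higher (log2 fold change 1.84, SE 0.74). It had 4.48 ± 2.17 CPM in control and 16.2 ± 16.3 CPM in obesity, and did not pass with the block. Ube2v1, a catalytically inactive partner of a conjugating enzyme, had a log2 fold change of 1.09 (SE 0.61).

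Of the RING ligases with other names, 29 of 36 were measured, with a median log2 fold change of 0.13. At an unadjusted p under 0.05 in edgeR, 2 were higher and 2 lower, against 2.54% and 2.58% of all genes. Park2, the ligase that marks damaged mitochondria, was at 232 ± 29.6 CPM in control and 354 ± 86.7 CPM in obesity (log2 fold change 0.61, SE 0.21), with an adjusted p of 0.921 without and 0.146 with the block. Birc2, an inhibitor of apoptosis, had 2.53 ± 0.797 CPM and 12.2 ± 11.7 CPM (log2 fold change 2.23, SE 0.79). Its reads were 3, 5, 2 and 4 in the control rats and 37, 3, 25 and 6 in the obesity rats. Obesity library 2 lay within the control range. The adjusted p of Birc2 in edgeR was 0.921 without and 0.400 with the block.

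Of the deubiquitinating enzymes, 40 of 43 were measured, 12 with a value above 0 and 28 below, with a median of -0.09. At an unadjusted p under 0.05 in edgeR, 0 were higher and 1 lower, and with the block 0 were higher and 5 lower. Over all genes 2.58% were lower without the block and 6.16% with it. Usp7, which removes ubiquitin from the ligase Mdm2, was at 48.0 ± 18.3 CPM in control and 26.0 ± 16.3 CPM in obesity (log2 fold change -0.90, SE 0.41). Usp30, which acts on mitochondria against Park2, had a log2 fold change of -0.65 (SE 0.32). No gene of these 4 lists passed an adjusted p of 0.1 in edgeR with or without the block.

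Most members ended at more than 1 place. There were 27 genes with 1 site, the median member had 3 sites, and Rnf220 had 34 on both strands. Reads were seen in all 8 libraries at 223 of the member sites (58.5%, against 55.2% of all sites). On the strand with most reads, 55 members had 2 or more sites. In 28 of these the most used site held over 50% of the reads, and in 18 it was the most 3′ site.

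Trim44 illustrates a gene with a main and a distal end. Its site at 92241698 to 92241870 (chromosome 3, minus strand) held 78.2% of the reads, and the most 3′ site at 91968145 to 91968184 held 19.1%. The distal site took 20.5% ± 1.24 in control and 18.3% ± 4.28 in obesity (SD, n = 4 each). Rnf20 ended mainly at 1 site (chromosome 5, plus strand, 64914130 to 64914253) with 83.0% of its reads. Rnf112 used 2 sites about equally, at 47720018 to 47720043 and 47719033 to 47719041 on the minus strand of chromosome 10, with 37.0% and 40.3% of the reads.

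Site usage within genes was tested in 55 members. In edgeR, 0 passed an adjusted p of 0.1 and 0 passed an unadjusted p of 0.05, against 0 (0.0%) and 109 (1.36%) of 7996 genes. With the block, 1 member passed an unadjusted p of 0.05 (Rnf113a2, 0.0406), against 2.79% of all genes, and 0 passed an adjusted p of 0.1, against 1 (0.0125%). The share of reads at the most 3′ site was lower in obesity than in control in 35 of 54 members (64.8%), and in 62.1% of 7598 genes. This tilt was therefore not particular to the members.

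Rnf157, a ligase of neurons with a role in dendrite growth, was looked at after its values were seen. Its most 3′ site (chromosome 10, minus strand, 105291148 to 105291175) held 52.4%, 52.7%, 48.7% and 45.6% of its reads in the control rats. In the obesity rats it held 24.5%, 36.4%, 23.3% and 29.7%, all below control. The usage test of the gene gave an unadjusted p of 0.583 in edgeR and 0.242 with the block, and its abundance overlapped between groups (152 ± 49.5 CPM and 164 ± 38.1 CPM).

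Trim37, a ligase of peroxisomes and centrosomes, had most of its reads on the antisense strand. Its main site there (chromosome 10, minus strand, 74546720 to 74546740) held 1538 reads and lay 2.23 kb from a site of Ppm1e on the same strand, whose sites also lay between those assigned to Trim37. On the sense strand, a site at 74538364 to 74538387 had 28, 29, 21 and 24 reads in the control rats and 10, 22, 2 and 7 in the obesity rats. Its CPM did not overlap, but control library 3 (21 reads) and obesity library 2 (22 reads) nearly met. The log2 fold change of this site was -1.32 (SE 0.64), with an unadjusted p of 0.0595 in edgeR, and with the block 0.0067. The adjusted p was 1.00 and 0.563. The sum over the sense strand had a log2 fold change of -0.18, with an adjusted p of 0.984 in edgeR.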

How the data were processed

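Read counts per polyadenylation site were deposited by the authors without normalization, from 8 hypothalamus libraries (4 control, 4 obesity, grouped by the labels). RNA was purified with Qiagen RNeasy Micro, then fragmented, enriched for poly(A), reverse transcribed, size-selected and amplified by PCR. The submitters' processing notes name Bowtie2 2.2.3 and Rnor_6.0 without a role. Site clustering, annotation and cutoff were not given in the sources used here. The lowest site total was 30 reads, and a line holding only a library total was dropped. Without molecular identifiers, amplified copies are counted as reads. Depth was 1417531 to 1957726 reads, and the median member site had 64 reads, so errors of single sites are wide.

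Gene counts were sums over the sites on the strand with most reads. Genes and sites were tested with edgeR 4.0.16 (quasi-likelihood, robust, TMM) in R 4.3.3, and site usage with diffSpliceDGE and Simes p-values, with Benjamini-Hochberg adjustment over all genes or sites and a threshold of 0.1. DESeq2 1.42.0, other scaling and filters, a block for the library number and left-out libraries were alternatives. The scripts were tested on simulated data. Members, role lists and tests were chosen with earlier results of these data known. The text names members at an unadjusted p under 0.05 (genes, usage) or 0.01 (sites) without or with the block, the 10 most abundant, the 2 most abundant of each role list, the KPC list, and the 2 genes with the smallest p of each other list. Other items are said to have been looked at after their values were seen.

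Sense strands came from RefSeq (GRCr8) where the order of at least 5 neighbouring genes within 1 Mb had a rank correlation of at least 0.8 in either direction. This reading was added after the data were seen. Genes without a strand set this way kept the strand with most reads in the RefSeq sense strand setting. Rnf5, Rnf150 and Trim28 lie where that order is reversed between the builds. After subtracting each group mean of log2 CPM, libraries with the same number correlated at 0.254 to 0.372 and others at -0.206 to 0.0756, so the number was treated as pairing the libraries. What a number shares is not stated in the labels. In 28 pairwise chi-square comparisons the lowest value was 3.3 per site, more than sampling noise gives, and all libraries were counted as separate rats. The text of the paper linked to the series describes another exposure and was not used for the groups or the tests.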

Additional observations from a re-analysis of the deposited data

Results flagged for a closer look

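Single libraries that stood apart within a group of 4 were looked for in 58 groups of values (CPM of the named members and sites, and shares of reads) with Dixon's test. It singled out 4, where chance alone would give about 2.9. Rnf157 had 226 CPM in control library 1, against 124 to 128 CPM in the other control libraries. Rnf130 had 73.8 CPM in obesity library 3, against 56.5 to 58.6 CPM in the other obesity libraries. The Rnf113a2 site described above had 0.561 CPM in obesity library 4 and the Rnf115 site had 0.693 CPM in obesity library 2, each from 1 read where the other obesity libraries had 0.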

How the results depend on the processing

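Rnf123 kept a log2 fold change between 1.02 and 1.61 in every setting that summed the strand with most reads or both strands, and fell to 0.06 on the RefSeq sense strand. It passed an adjusted p of 0.1 with the replicate block (1.30), with the block without both libraries numbered 1 (1.06) or 2 (1.61), and with the block over both strands (1.15), but not with the block without both libraries numbered 3 or 4. Leaving out 1 library without the block gave 1.18 to 1.53, with adjusted p from 0.224 to 1.00. The number of members at an adjusted p under 0.1 was 1 in these settings, except 4 with the block without both libraries numbered 2. These were Rnf123, Rnf214, Rnf5 and Rnf180, the last named after its values were seen. The share of all genes called in that fit is not given here. The number was 0 in every fit that left out 1 library, and 1 among sites with DESeq2. Members at an unadjusted p under 0.05 numbered 5, and 3 on the RefSeq sense strand, 2 with filterByExpr, which 67 of the 85 genes passed, 8 with the block, 9 with the block over both strands, 9 and 3 with the block without both libraries numbered 2 and 3, and 2 to 7 with 1 library left out. Among sites they numbered 14, 3 with filterByExpr (146 of 381 sites passed), 26 with the block and 9 to 24 with 1 library left out. For usage they numbered 0, 1 with the block and 0 to 3 with 1 library left out. Shares over all genes or sites are given above for edgeR without and with the block, the RefSeq sense strand and DESeq2. They are not given for the other settings, so those counts cannot be read as particular to the members. With the block the activating enzymes and ubiquitin genes at an unadjusted p under 0.05 numbered 2 in place of 1, the conjugating enzymes 0 in place of 1 and the deubiquitinating enzymes 5 in place of 1. Over all genes 10.9% passed this threshold with the block and 5.12% without. The difference in the share of reads stayed between -0.0309 and -0.00682 with 1 library left out. The direction was followed in 33 genes and 5 sites named in the text. It held for the 8 members at an unadjusted p under 0.05 without or with the block and for the 5 sites, in each setting that measured them, and it turned in 9 genes that passed no such threshold. Rnf220 turned to 0.00324 with DESeq2, 0.00318 with its size factors in edgeR, 0.00245 with filterByExpr, and 0.00228 and 0.000285 with the block without both libraries numbered 2 and 3. Trim33 turned to 0.00498 on the RefSeq sense strand with the block, and to 0.00789 and 0.13 with the block without both libraries numbered 1 and 2. Trim44 turned to 0.065 and 0.034 in these last settings, Rnf207 to -0.17 without both libraries numbered 3, and Nfkb1 to -0.13 and -0.056 without both numbered 3 and 4. With 1 library left out, values ran from -0.13 to 0.080 for Rnf220, -0.14 to 0.091 for Trim33, -0.10 to 0.039 for Trim44, -0.31 to 0.045 for Trim37, -0.032 to 0.37 for Rnf157, -0.43 to 0.060 for Rnf187 and -0.30 to 0.67 for Trim8. Without both libraries numbered 2, the block also gave an adjusted p under 0.1 to Park2, Uba1, Usp7 and Usp30. Rnf166, named for its strand, had 0.36, and -0.18 on the RefSeq sense strand. Where a call moved, the cause was not tested, except that fewer items were tested under filterByExpr. Depth limits single sites most, since the median member site had 64 reads over 8 libraries.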
